A study of Homo sapiens with 14 samples.

Results

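The interferon response genes followed here are 37 human genes that cells switch on when interferon signals, taken as a given list of gene names and looked up in the count table of each experiment. Of the 37 genes, 29 had a line in the table of the knockdown experiment and 26 in that of the compound experiment. All 26 were also among the 29, and IFI27, IFI44 and IFIT5 were in the knockdown table alone. Another 8 genes (CXCL10, EPSTI1, IFI44L, MX1, MX2, OAS1, OAS2 and OAS3) had no line in either table and were not analysed here. Each table listed only genes above a minimum summed count (27 in the knockdown table and 50 in the compound table), so the genes described are those with reads above that floor. All 29 and all 26 passed the filter on low counts. RIGI was listed under its older symbol DDX58 (ENSG00000107201).

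Type I interferons bind a receptor whose kinases phosphorylate STAT2. With IRF9 it takes part in a complex that binds a short DNA element, the interferon-stimulated response element (ISRE), beside its target genes. The targets include sensors of foreign RNA (RIGI, IFIH1), proteins that bind viral RNA (the IFIT family), the ubiquitin-like protein ISG15 with the enzymes that attach or remove it (HERC5, USP18), and factors such as IRF7 that induce more interferon. In myeloid cells a low level of many of these genes is present without infection.

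All groups were Kasumi-1 cells, an established leukemia line of myeloblast type that carries the 8;21 translocation. In shRBPMS cells (n = 3) a lentivirus carried an shRNA against RBPMS, an RNA-binding protein, and in shCtrl cells (n = 3) it carried a scrambled shRNA. Both groups thus share the virus, applied for 48 h, and the puromycin selection of 48 h that followed. RB98# cells (n = 2) were treated with RB98#, a compound known here by its code name alone, and DMSO cells (n = 2) with its solvent (dose and duration are not stated in the labels). No interferon treatment is named in the labels. The labels do not say how many shRNA sequences were used or whether replicates were separate cultures, so the p-values measure the spread between these libraries, which may be technical.

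The ISRE was searched for as GAAA, any 2 bases and GAAA again on either strand, with overlapping matches each counted, in the RefSeq promoter windows of GRCh38.p14 (250 bases before to 50 after a gene's start). Of the 37 genes, 31 had a window, and 21 of these (67.7%) held a match, against 1195 of 27305 genes (4.38%). The windows of CMPK2, HERC6, IFI35, IRF1, IRF9, OAS1, RIGI, SAMD9L, STAT2 and XAF1 held none. IFIT2, IRF7, MX2, OAS2, OASL and USP18 had no window in the table. The gamma-activated site, searched for as TTCNNNGAA, reads the same on both strands and was matched in 10 of 31 (32.3%), against 9.38% of all genes. A match of letters is not a measured binding site.

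Matched stretches are shown for 8 of the genes that passed a test below, chosen from those that held a match. RIGI, IFI35, STAT2 and SAMD9L also passed a test but held no match, and PARP9 and RSAD2 held one but are not shown. The stretches are written 5′ to 3′ on the gene's own strand with the matches in capitals. In a capital run that starts with TTTC the element lies on the opposite strand. The first 6 belong to genes called lower after the knockdown, and the last 2 to genes called higher with RB98#. IFIT1, IFIT3 and IFI6 were called after the knockdown in the blocked fit described below and not without the block. IFIT1, IFIT3 and PARP14 were also called lower with RB98#. The stretches lie at chr4:168318788-168318848 on the minus strand (DDX60), chr4:88456986-88457062 on the plus strand (HERC5), chr3:122680802-122680827 on the plus strand (PARP14), chr10:89392499-89392537 on the plus strand (IFIT1), chr10:89327833-89327892 on the plus strand (IFIT3, the most upstream start), chr1:27672268-27672356 on the minus strand (IFI6), chr1:1013376-1013407 on the plus strand (ISG15) and chr15:88638939-88638964 on the plus strand (ISG20).
DDX60: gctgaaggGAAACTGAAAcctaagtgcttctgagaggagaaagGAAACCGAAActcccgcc
HERC5: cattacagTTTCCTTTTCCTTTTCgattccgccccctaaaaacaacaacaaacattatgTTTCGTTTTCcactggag
PARP14: caggaaacGAAAGCGAAAgagtcaaa
IFIT1: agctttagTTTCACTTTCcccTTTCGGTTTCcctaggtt
IFIT3: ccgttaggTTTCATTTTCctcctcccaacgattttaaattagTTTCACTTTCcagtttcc
IFI6: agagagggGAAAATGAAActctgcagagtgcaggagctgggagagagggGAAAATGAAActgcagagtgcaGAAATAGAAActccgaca
ISG15: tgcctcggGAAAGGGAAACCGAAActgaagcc
ISG20: acaaactaGAAACTGAAAcagggtcg

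Library totals were 25.22 to 27.66 M counts (1 M is 1e6) in shRBPMS and 24.03 to 34.38 M in shCtrl, and 13.85 to 15.19 M with RB98# and 14.18 to 15.35 M with DMSO. RBPMS itself was at 2.53, 3.34 and 3.08 counts per 1e6 counts (CPM) in shRBPMS replicates 1, 2 and 3 and at 20.4, 7.24 and 7.39 CPM in shCtrl replicates 1, 2 and 3, so the highest shRBPMS library lay under the lowest shCtrl library. The names of the libraries fall into 2 label sets, set 1 holding both replicates numbered 1 and set 2 those numbered 2 and 3, without saying what distinguishes them. Replicates 2 and 3 of a group lay close together (chi-square per degree of freedom 3.03 in shRBPMS and 3.01 in shCtrl), whereas replicate 1 lay far from both (133 and 137 in shRBPMS, 194 and 215 in shCtrl). The knockdown was therefore fitted both with group alone and with a block for the replicate number, and both fits are given where they differ. RBPMS was not called with group alone (log2 change -1.96, SE 0.45, adjusted p = 0.0846 in edgeR's quasi-likelihood test) and fell with the block (-1.79, SE 0.35, adjusted p = 0.0106). All 7 myeloblast markers had reads, with a summed level of 15200 to 17000 CPM in shRBPMS and 13600 to 17700 CPM in shCtrl, and of 16000 to 17000 CPM with RB98# and 14400 to 14500 CPM with DMSO. Single markers moved within that sum, with PTPRC (log2 change 2.29), ANPEP (1.79) and CD33 (1.71) higher after the knockdown in the fit with group alone, and MPO, PTPRC and RUNX1T1 higher and CD33, CD34 and KIT lower with RB98#. Their part in the results below was not tested. Erythroid markers (0 of 5) had no line in the knockdown table. In bulk RNA, fewer cells that express a gene and less of its RNA per cell cannot be told apart.

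With no interferon treatment named in the labels, the genes were expressed at low to moderate levels. Their mean level ran between 0.44 CPM for RSAD2 and 48.8 CPM for PARP14 in shCtrl (median 5.46 CPM), with 8 of 29 genes at 10 CPM or more and 8 below 2 CPM. With DMSO it ran between 0.974 CPM for ISG20 and 31.6 CPM for STAT2 (median 4.95 CPM), with 9 of 26 at 10 CPM or more and 4 below 2 CPM. Per kilobase of merged exons, the highest levels in shCtrl were those of BST2, which tethers budding virus to the cell surface (15.5 ± 7.94 CPM per kb, SD, n = 3), and IFI6, a small membrane protein that restricts viral replication (14.3 ± 5.71). These levels do not differ beyond their spread. STAT2 (6.69 ± 0.55), PARP14 (4.65 ± 1.15) and ISG15 (4.43 ± 2.61) followed. With DMSO, BST2 (11.6 ± 0.92 CPM per kb, n = 2) lay above STAT2 (5.18 ± 0.20) and IFI6 (3.11 ± 0.40). RSAD2 was lowest in shCtrl (0.0911 ± 0.0553) and ISG20 in DMSO (0.132 ± 0.0298).

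After the knockdown most interferon response genes were lower. Summed over the 29 genes, the level was 176, 200 and 198 CPM in shRBPMS replicates 1, 2 and 3 and 257, 262 and 267 CPM in shCtrl replicates 1, 2 and 3, and the groups do not overlap. Such a sum weighs abundant genes most. A large part of its fall is that of PARP14, with a mean of 19.7 CPM in shRBPMS and 48.8 CPM in shCtrl. In the fit without a block, edgeR's quasi-likelihood test with Benjamini-Hochberg adjustment called DDX60, HERC5 and PARP14 lower and none higher. These are 3 of 29 genes (10.3%), where 1.97% of all 16215 genes were called, 1.34% lower and 0.629% higher. At an unadjusted p under 0.05, 6 of the 29 were lower and 0 higher, where 2733 of all 16215 genes were under it in either direction. In the blocked fit, which called 28.1% of all genes, 11 of 29 (37.9%) were lower, against 14.8% of all genes, and 1 of 29 (3.45%) was higher, against 13.3%. The median log2 change of the 29 genes was -0.49 without a block and -0.47 with it, against 0.015 over all genes without a block. A negative change was seen in 21 of 29 (72.4%), against 48.1% of all genes. Libraries of both groups did not overlap in 7 of 29 genes, all lower in shRBPMS, where 25.9% of all genes had no overlap, 13.6% lower and 12.3% higher. None of the 3 calls without a block was kept when shCtrl replicate 2 or 3, or any shRBPMS replicate, was left out, where edgeR called 0 to 37 genes in all.

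**Figure D1:**
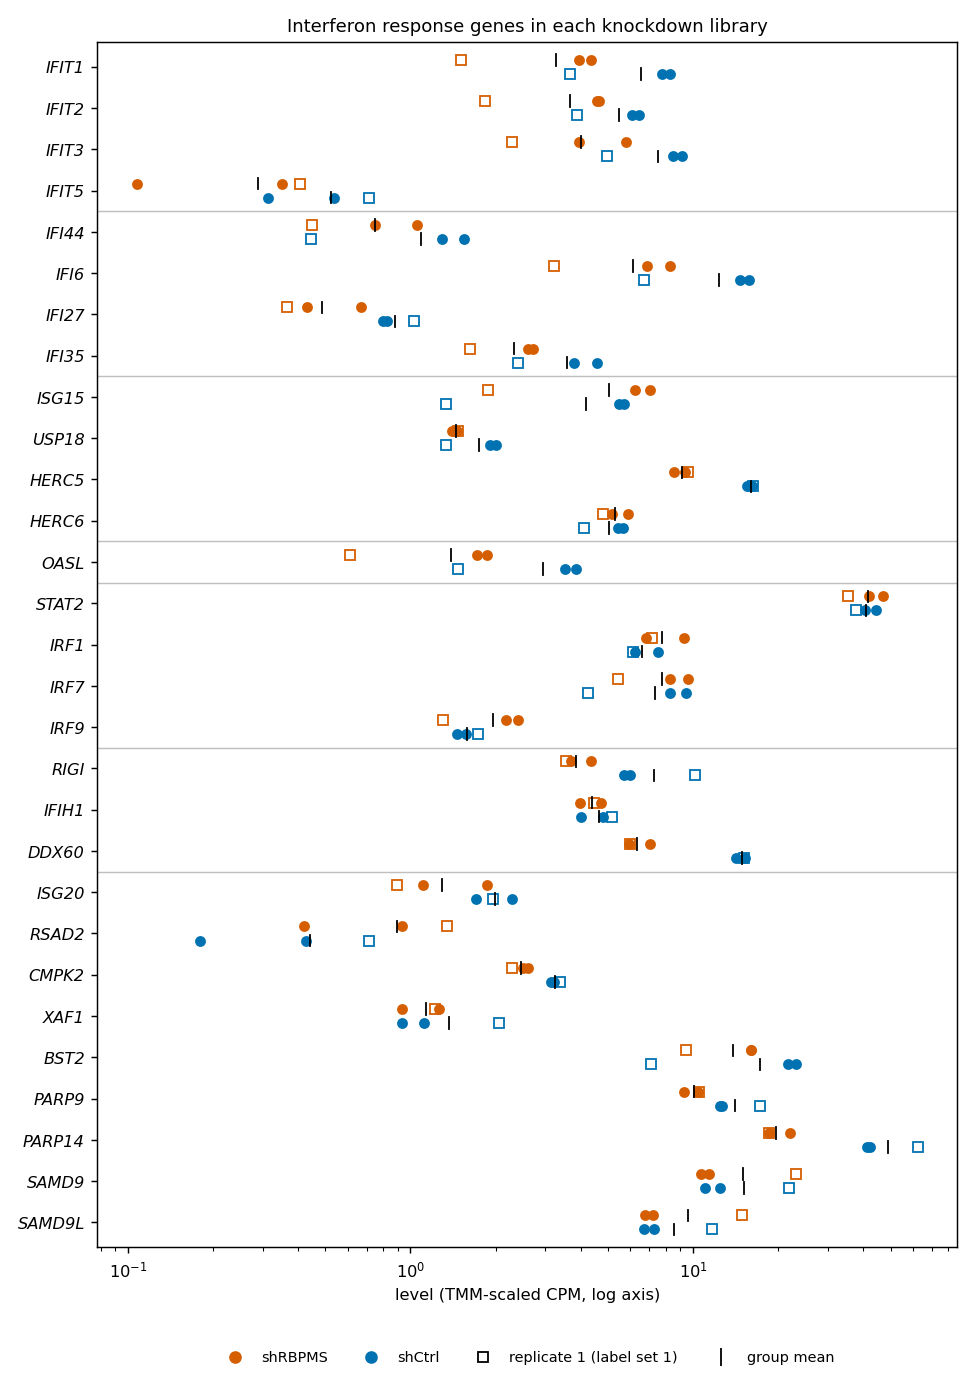
Level of each of the 29 interferon response genes in every knockdown library, as TMM-scaled CPM on a log axis, grouped by role. Points are single libraries, shRBPMS above shCtrl in each row, and the black bar is the group mean. DDX60, HERC5, PARP14, PARP9, RIGI, CMPK2 and IFI27 show no overlap between the groups, while STAT2 lies at 35.3 to 46.9 CPM in shRBPMS and 37.7 to 44.4 CPM in shCtrl.

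The sensors of foreign RNA are 3 genes. DDX60, a helicase that has been linked to RNA sensing, had 5.99, 5.94 and 7.05 CPM in shRBPMS and 15.1, 15.3 and 14.2 CPM in shCtrl. The highest shRBPMS library was thus below the lowest shCtrl library, and DDX60 fell by 1.23 on the log2 scale (SE 0.15, adjusted p = 0.0258, and 0.000948 with the block). RIGI, which detects viral RNA ends in the cytosol, had 3.55, 4.36 and 3.68 CPM in shRBPMS and 10.2, 5.70 and 5.99 CPM in shCtrl. Its groups do not overlap either, and shCtrl replicate 1 stood highest. RIGI fell in the blocked fit (log2 change -0.86, SE 0.22, adjusted p = 0.0279) and had an adjusted p of 0.154 without the block. IFIH1, the sensor of long double-stranded RNA, had a level of 4.39 ± 0.39 CPM in shRBPMS and 4.66 ± 0.59 CPM in shCtrl, and its blocked log2 change was -0.08 (SE 0.17, adjusted p = 0.742).

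The IFIT proteins bind foreign RNA and block its translation, and all 4 had a lower mean in shRBPMS. IFIT1 had 1.51, 4.36 and 3.93 CPM in shRBPMS and 3.65, 8.28 and 7.73 CPM in shCtrl. IFIT3, its binding partner, had 2.28, 5.80 and 3.93 CPM in shRBPMS and 4.95, 8.50 and 9.10 CPM in shCtrl. IFIT2 had 1.83, 4.57 and 4.65 CPM in shRBPMS and 3.88, 6.06 and 6.45 CPM in shCtrl. In all 3 genes each shRBPMS library lay below the shCtrl library of the same number, but replicate 1 was low in both groups, so the groups overlap. In the blocked fit IFIT1 (log2 change -1.03, SE 0.15, adjusted p = 0.00376), IFIT3 (-0.94, SE 0.17, adjusted p = 0.00881) and IFIT2 (-0.61, SE 0.18, adjusted p = 0.0417) fell. Without the block their adjusted p was 0.348, 0.305 and 0.559. IFIT5 was at 0.289 ± 0.16 CPM in shRBPMS and 0.522 ± 0.20 CPM in shCtrl (blocked log2 change -0.88, SE 0.38, adjusted p = 0.130).

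Among the interferon-induced proteins of the IFI group, IFI6 had 3.22, 8.29 and 6.87 CPM in shRBPMS and 6.73, 15.8 and 14.7 CPM in shCtrl. IFI35, a leucine-zipper protein, had 1.63, 2.60 and 2.72 CPM in shRBPMS and 2.41, 4.55 and 3.80 CPM in shCtrl. Both show the pattern of the IFIT genes, with replicate 1 low in each group and each shRBPMS library below its numbered partner. IFI6 (log2 change -1.03, SE 0.11, adjusted p = 0.00138) and IFI35 (-0.62, SE 0.18, adjusted p = 0.0405) fell in the blocked fit, and their adjusted p without the block was 0.309 and 0.402. IFI27 was at 0.488 ± 0.16 CPM in shRBPMS and 0.883 ± 0.12 CPM in shCtrl without overlap (blocked adjusted p = 0.110), and IFI44 at 0.751 ± 0.30 CPM in shRBPMS and 1.09 ± 0.57 CPM in shCtrl (blocked adjusted p = 0.249). OASL, a relative of the OAS enzymes that lacks their synthase activity and aids RIGI, had 0.612, 1.86 and 1.72 CPM in shRBPMS and 1.47, 3.51 and 3.85 CPM in shCtrl. It fell in the blocked fit (log2 change -1.09, SE 0.20, adjusted p = 0.00895) and had an adjusted p of 0.362 without the block.

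Within the ISG15 system the genes did not move as one. HERC5, the main human ligase that attaches ISG15 to other proteins, had 9.58, 8.54 and 9.37 CPM in shRBPMS and 16.4, 15.6 and 16.2 CPM in shCtrl. These groups do not overlap, and HERC5 fell (log2 change -0.81, SE 0.14, adjusted p = 0.0428, and 0.00185 with the block). ISG15 had 1.88, 7.06 and 6.22 CPM in shRBPMS and 1.34, 5.70 and 5.48 CPM in shCtrl. Each shRBPMS library lay above its numbered partner, the groups overlap, and the blocked log2 change was 0.30 (SE 0.15, adjusted p = 0.187). HERC6, which neighbours HERC5 on chromosome 4, was at 5.29 ± 0.56 CPM in shRBPMS and 5.05 ± 0.83 CPM in shCtrl (blocked log2 change 0.07, SE 0.14, adjusted p = 0.754). USP18, the protease that removes ISG15, was at 1.45 ± 0.04 CPM in shRBPMS and 1.75 ± 0.36 CPM in shCtrl (blocked adjusted p = 0.426).

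PARP14, an ADP-ribosyltransferase, showed the largest fall of the group in the fit without a block. It had 18.6, 18.5 and 22.0 CPM in shRBPMS and 62.7, 42.3 and 41.4 CPM in shCtrl, without overlap, and shCtrl replicate 1 was highest. Its log2 change was -1.31 (SE 0.20, adjusted p = 0.0349), and -1.28 with the block (SE 0.15, adjusted p = 0.00176). PARP9, which works in a complex with the ubiquitin ligase DTX3L, had 10.5, 10.4 and 9.26 CPM in shRBPMS and 17.2, 12.4 and 12.6 CPM in shCtrl, again without overlap. It fell in the blocked fit (log2 change -0.47, SE 0.12, adjusted p = 0.0266, against 0.245 without the block).

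RSAD2 was the only one of the 29 genes called higher in the blocked fit. It encodes viperin, an enzyme that makes a chain-terminating nucleotide, and had 1.35, 0.422 and 0.930 CPM in shRBPMS and 0.713, 0.179 and 0.428 CPM in shCtrl. These levels rest on 33, 12 and 26 counts in shRBPMS and 16, 5 and 15 counts in shCtrl, and the groups overlap. The blocked log2 change was 1.05 (SE 0.31, adjusted p = 0.0424), and the adjusted p was 0.455 without the block. RSAD2 was not called with the label set as a covariate or with replicates 2 and 3 summed. CMPK2, a nucleotide kinase that lies head to head with RSAD2 on chromosome 2, had a negative blocked change (-0.40, SE 0.18, adjusted p = 0.137), with 2.46 ± 0.17 CPM in shRBPMS and 3.26 ± 0.12 CPM in shCtrl.

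The transcription factors of the response did not pass in either fit of the knockdown. In label set 2 alone, edgeR called IRF9 higher (log2 change 0.60, adjusted p = 0.0449) and not STAT2, IRF1 or IRF7. STAT2 had 35.3, 42.1 and 46.9 CPM in shRBPMS and 37.7, 40.6 and 44.4 CPM in shCtrl, and its blocked log2 change was 0.01 (SE 0.07, adjusted p = 0.902). IRF9, its DNA-binding partner, had 1.31, 2.18 and 2.40 CPM in shRBPMS and 1.74, 1.58 and 1.46 CPM in shCtrl (0.30, SE 0.27, adjusted p = 0.452). The groups of both genes overlap. IRF1, an early activator, had 7.14, 9.31 and 6.80 CPM in shRBPMS and 6.11, 6.24 and 7.51 CPM in shCtrl (0.22, SE 0.16, adjusted p = 0.360). IRF7, which drives further interferon production, had 5.42, 9.62 and 8.30 CPM in shRBPMS and 4.23, 9.43 and 8.30 CPM in shCtrl (0.11, SE 0.13, adjusted p = 0.565). The libraries of both groups overlap in these genes too. IRF9 shares 48.4% of its exon bases with an overlapping gene on the same strand, which counting by strand would not separate. The same holds for IFIT2 to a lesser extent (8.68%, same strand). IRF1 shares 22.0% and XAF1 38.3% with a gene on the opposite strand. Whether the counting used the strand is not given in the sources used here. The counts of these genes are therefore uncertain.

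The remaining genes did not pass in either fit, though BST2 was called lower in label set 2 alone. SAMD9 and SAMD9L, paired antiviral genes that restrain the growth of blood cells, had blocked log2 changes of -0.03 (SE 0.10) and 0.13 (SE 0.13). BST2 (-0.23, SE 0.18), ISG20, an RNA exonuclease (-0.65, SE 0.25), and XAF1, a promoter of cell death (-0.20, SE 0.30), also stayed above 0.05, with adjusted p of 0.375, 0.0938 and 0.648 in the blocked fit.

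The label sets were also read one by one. In set 1, with 1 library per group and so no replicate, the median log2 ratio of shRBPMS over shCtrl was -0.57 over the 29 genes, and in set 2 it was -0.44. Of the 29 genes 16 were lower in both sets and 5 higher in both (ISG15, HERC6, IRF1, IRF7 and RSAD2), and 8 went opposite ways. Some genes lay far apart between the sets, among them IRF9 (-0.41 in set 1 and 0.59 in set 2), RIGI (-1.52 and -0.54), IFI27 (-1.48 and -0.57) and BST2 (0.42 and -0.48). DDX60 (-1.33 in set 1 and -1.18 in set 2), HERC5 (-0.77 and -0.83) and IFI6 (-1.06 and -1.01) were close in both. When the label set was a covariate, the same 11 genes were called lower as in the blocked fit and none higher. They are 37.9% of the 29, against 18.4% of all genes called lower and 35.8% called in either direction. With replicates 2 and 3 summed, so that each set counts once, 8 of the 29 genes were called, all lower (27.6%, against 8.62% of all genes called lower). They were DDX60, HERC5, IFI6, IFIT1, IFIT3, OASL, PARP14 and RIGI, all among the 11. The authors' deposited table has an adjusted p under 0.05 for the same 8 genes, with log2 changes of -1.21 for DDX60, -0.81 for HERC5 and -1.18 for PARP14, and not for RSAD2 (adjusted p = 0.278).

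**Figure D2:**
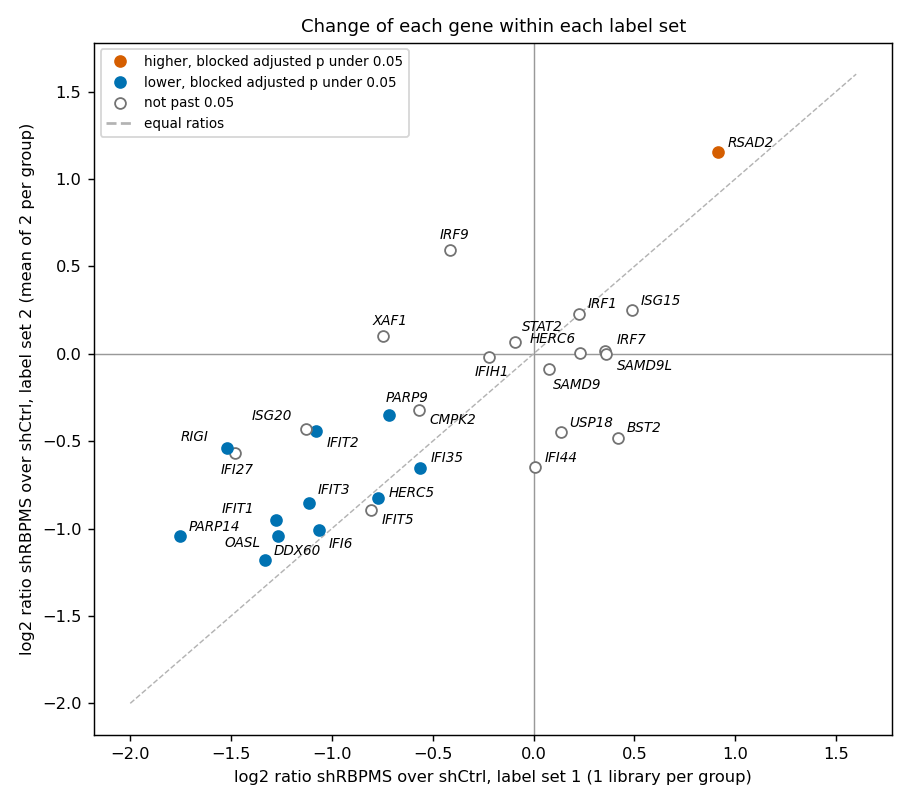
Log2 ratio of shRBPMS over shCtrl for each of the 29 genes in label set 2 (vertical axis, mean of 2 libraries per group) against label set 1 (horizontal axis, 1 library per group). Filled points passed an adjusted p of 0.05 in the blocked fit, and the dashed line marks equal ratios. The 11 genes called lower lie in the lower left, between -1.75 and -0.56 in set 1, and RSAD2 lies farthest to the upper right.

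Some markers of T and NK cells were lower after the knockdown. Of 7 such markers 4 had reads in the knockdown table, with a summed level of 4.00 to 5.09 CPM in shRBPMS and 11.2 to 12.5 CPM in shCtrl. Of these 4, 3 had a negative log2 change and only CD3D and CD3E were called (edgeR without the block, adjusted p = 0.0222 and 0.0335). CD3D was at 2.24 ± 0.40 CPM in shRBPMS and 8.46 ± 0.51 CPM in shCtrl. CD3E was near the floor, at 0.151 ± 0.05 CPM in shRBPMS and 1.31 ± 0.53 CPM in shCtrl. IL3RA, the single gene with reads of 5 listed for plasmacytoid dendritic cells, was at 8.62 to 9.98 CPM in shRBPMS and 9.36 to 12.2 CPM in shCtrl. B cell markers (4 of 5 with reads) summed to 6.80 to 7.91 CPM in shRBPMS and 7.58 to 11 CPM in shCtrl, and EPCAM, the 1 of 6 fibroblast and epithelial markers with reads, was at 36.1 to 65.4 CPM in shRBPMS and 26.6 to 40.1 CPM in shCtrl. Their part in the result was not tested.

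With RB98# some interferon response genes rose and others fell. The summed level of the 26 genes was 179 and 186 CPM with RB98# and 203 and 209 CPM with DMSO. IRF7, ISG15 and ISG20 rose and IFIT1, IFIT3, PARP14, SAMD9L and STAT2 fell. The 5 genes lower (19.2%) compare with 17.3% of all 12324 genes called lower, and the 3 higher (11.5%) with 20.5% called higher, so the 30.8% of members called lies near the 37.8% of all genes and is no result about the group. The median log2 change was -0.22, against 6.5e-05 over all genes, and 17 of 26 (65.4%) were negative, against 50% of all genes. Libraries did not overlap in 13 genes that were lower and 5 that were higher with RB98#, where 68.3% of all genes had no overlap, 34% lower and 34.3% higher. Marker sums moved too. T and NK cell markers (2 of 7 with reads) summed to 4.64 and 5.23 CPM with RB98# and 4.10 and 3.83 CPM with DMSO, and B cell markers (3 of 5) to 12.6 and 8.66 CPM with RB98# and 15 and 14.2 CPM with DMSO. Of 5 genes listed for plasmacytoid dendritic cells only IL3RA had reads. It was at 7.99 and 8.29 CPM with RB98# and 6.62 and 4.39 CPM with DMSO, and 1 gene does not show such cells. The part of these markers in the result was not tested. Scaled by library totals alone, the median of all genes moved by -0.10 and that of the 26 genes was -0.32.

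**Figure D3:**
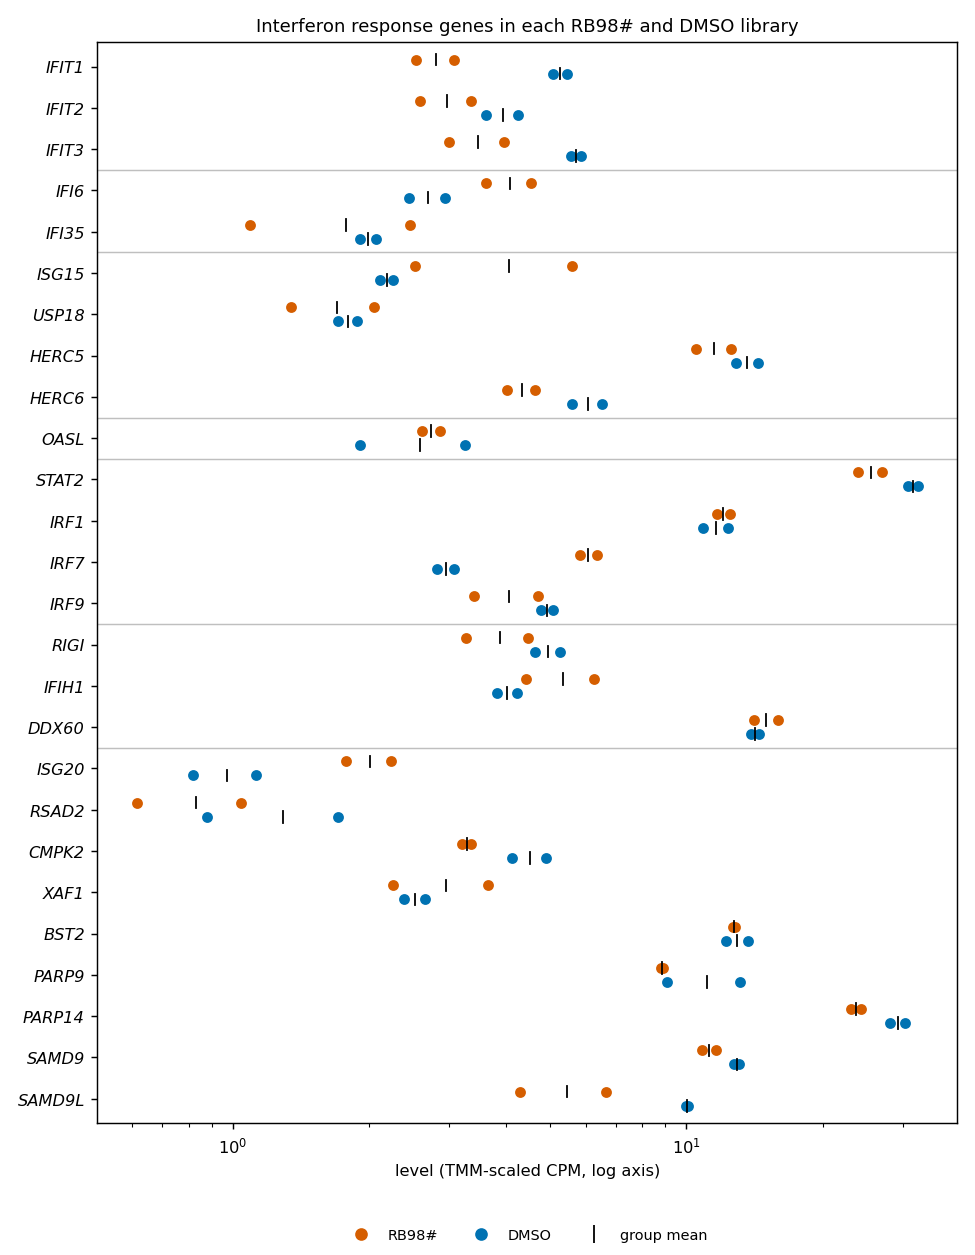
Level of each of the 26 interferon response genes in every RB98# and DMSO library, as TMM-scaled CPM on a log axis, grouped by role. Points are single libraries, RB98# above DMSO in each row, and the black bar is the group mean. IRF7 and ISG20 lie to the right of DMSO and SAMD9L, IFIT1 and IFIT3 to its left, and ISG15 is spread between 2.53 and 5.60 CPM with RB98#.

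IRF7 had 6.35 and 5.82 CPM with RB98# and 3.07 and 2.82 CPM with DMSO. It rose (log2 change 1.05, SE 0.24, adjusted p = 0.0012), and it was called with any one library left out. ISG20 had 1.78 and 2.24 CPM with RB98# and 0.819 and 1.13 CPM with DMSO, from 26 and 30 counts with RB98# and 12 and 18 counts with DMSO. Both genes were higher in each RB98# library than in either DMSO library. ISG20 passed narrowly (log2 change 1.02, SE 0.41, adjusted p = 0.0489) and was not called when any one library was left out. ISG15 had 2.53 and 5.60 CPM with RB98# and 2.12 and 2.26 CPM with DMSO, and RB98# replicate 2 stood highest. ISG15 passed narrowly (log2 change 0.88, SE 0.34, adjusted p = 0.0439). Its log2 change was 0.20 without RB98# replicate 2 (adjusted p = 0.708), and the call was also lost without DMSO replicate 1 (0.102) or 2 (0.0744), in limma-voom (0.0841) and in DESeq2 (0.147). Scaled by library totals alone, ISG15 (0.78, adjusted p = 0.0795) and ISG20 (0.92, adjusted p = 0.0733) were not called.

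SAMD9L had 4.30 and 6.65 CPM with RB98# and 9.97 and 10.1 CPM with DMSO. Both RB98# libraries lay below both DMSO libraries, though apart from each other, and SAMD9L fell (log2 change -0.88, SE 0.20, adjusted p = 0.000914), also with any one library left out. Its neighbour on chromosome 7, SAMD9, was at 11.3 ± 0.56 CPM with RB98# and 12.9 ± 0.26 CPM with DMSO (-0.20, SE 0.14, adjusted p = 0.290). IFIT1 had 3.07 and 2.54 CPM with RB98# and 5.46 and 5.08 CPM with DMSO (log2 change -0.90, SE 0.25, adjusted p = 0.00668). IFIT3 had 3.0 and 3.96 CPM with RB98# and 5.87 and 5.58 CPM with DMSO (-0.72, SE 0.24, adjusted p = 0.0191). In both genes the groups do not overlap. IFIT2, in the same cluster, had a change of -0.41 (SE 0.28, adjusted p = 0.259). STAT2 had 27 and 24.0 CPM with RB98# and 30.8 and 32.5 CPM with DMSO (-0.31, SE 0.10, adjusted p = 0.0207). PARP14 had 24.3 and 23.1 CPM with RB98# and 28.1 and 30.4 CPM with DMSO (-0.30, SE 0.11, adjusted p = 0.0249). These shifts are small but without overlap. Leaving out 1 library ended the call of IFIT1 without DMSO replicate 1 (adjusted p = 0.0529), of IFIT3 without DMSO replicate 1 or 2 or RB98# replicate 1 (0.103, 0.0686 and 0.123), and of STAT2 and PARP14 without DMSO replicate 1 or 2 or RB98# replicate 2. In the authors' deposited table IRF7 (adjusted p = 0.038) and SAMD9L (0.0312) are the only 2 of the 26 genes under 0.05.

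DDX60, HERC5, IFI6 and OASL, called lower after the knockdown in the blocked fit, were not called with RB98#. Nor were IFI35, RIGI, IFIT2 and PARP9, also called lower in that fit (edgeR adjusted p with RB98# = 0.753, 0.258, 0.259 and 0.135). RIGI, IFIT2 and PARP9 were lower in each RB98# library than in either DMSO library, while IFI35 overlapped. DDX60 had 15.9 and 14.1 CPM with RB98# and 14.5 and 13.9 CPM with DMSO (log2 change 0.09, SE 0.14, adjusted p = 0.655). HERC5 had 12.6 and 10.5 CPM with RB98# and 14.4 and 12.9 CPM with DMSO (-0.24, SE 0.15, adjusted p = 0.22). IFI6 had 3.62 and 4.55 CPM with RB98# and 2.94 and 2.45 CPM with DMSO (0.60, SE 0.28, adjusted p = 0.101). DDX60 overlaps between the groups, HERC5 was lower and IFI6 higher in both RB98# libraries. OASL had 2.87 and 2.61 CPM with RB98# and 1.91 and 3.26 CPM with DMSO, where the DMSO libraries enclose those of RB98#. IRF1 had 11.7 and 12.5 CPM with RB98# and 12.4 and 10.9 CPM with DMSO, with overlap, and IRF9 had 3.41 and 4.70 CPM with RB98# and 4.78 and 5.08 CPM with DMSO, all lower with RB98#, and neither passed (adjusted p = 0.809 and 0.373). RBPMS itself had 6.62 and 8.06 CPM with RB98# and 7.17 and 6.40 CPM with DMSO, and did not pass (0.11, SE 0.19, adjusted p = 0.678).

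Whether both treatments act differently on a gene was tested directly, as the log2 change with RB98# minus that after the knockdown, over all 10 libraries and 12126 shared genes. DDX60 was the only one of 26 genes called without a block (1 of 26, where 8.15% of all genes were called, 4.79% in that direction and 3.36% in the other). Its log2 change was 0.09 with RB98# and -1.23 after the knockdown, a difference of 1.30 (SE 0.20, adjusted p = 0.00975). Leaving out DMSO replicate 1 (adjusted p = 0.0601), DMSO replicate 2 (0.0692) or RB98# replicate 1 (0.0610) ended the call. With the block, DDX60, HERC5, IFI6, IRF7, ISG20, OASL and PARP14 had a higher change with RB98# (7 of 26, 26.9%, against 18.9% of all genes) and SAMD9L a lower one (1 of 26, against 18.2%), where 37.1% of all genes were called. IFI6 (1.61, SE 0.26, adjusted p = 0.0017) and ISG20 (1.66, SE 0.45, adjusted p = 0.0172) had the largest of these differences, and PARP14, which fell in both experiments, had 0.96 (SE 0.24, adjusted p = 0.0117). For IFIT1 the blocked difference was 0.10 (SE 0.28, adjusted p = 0.802), so its change after the knockdown and with RB98# was not shown to differ.

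**Figure D4:**
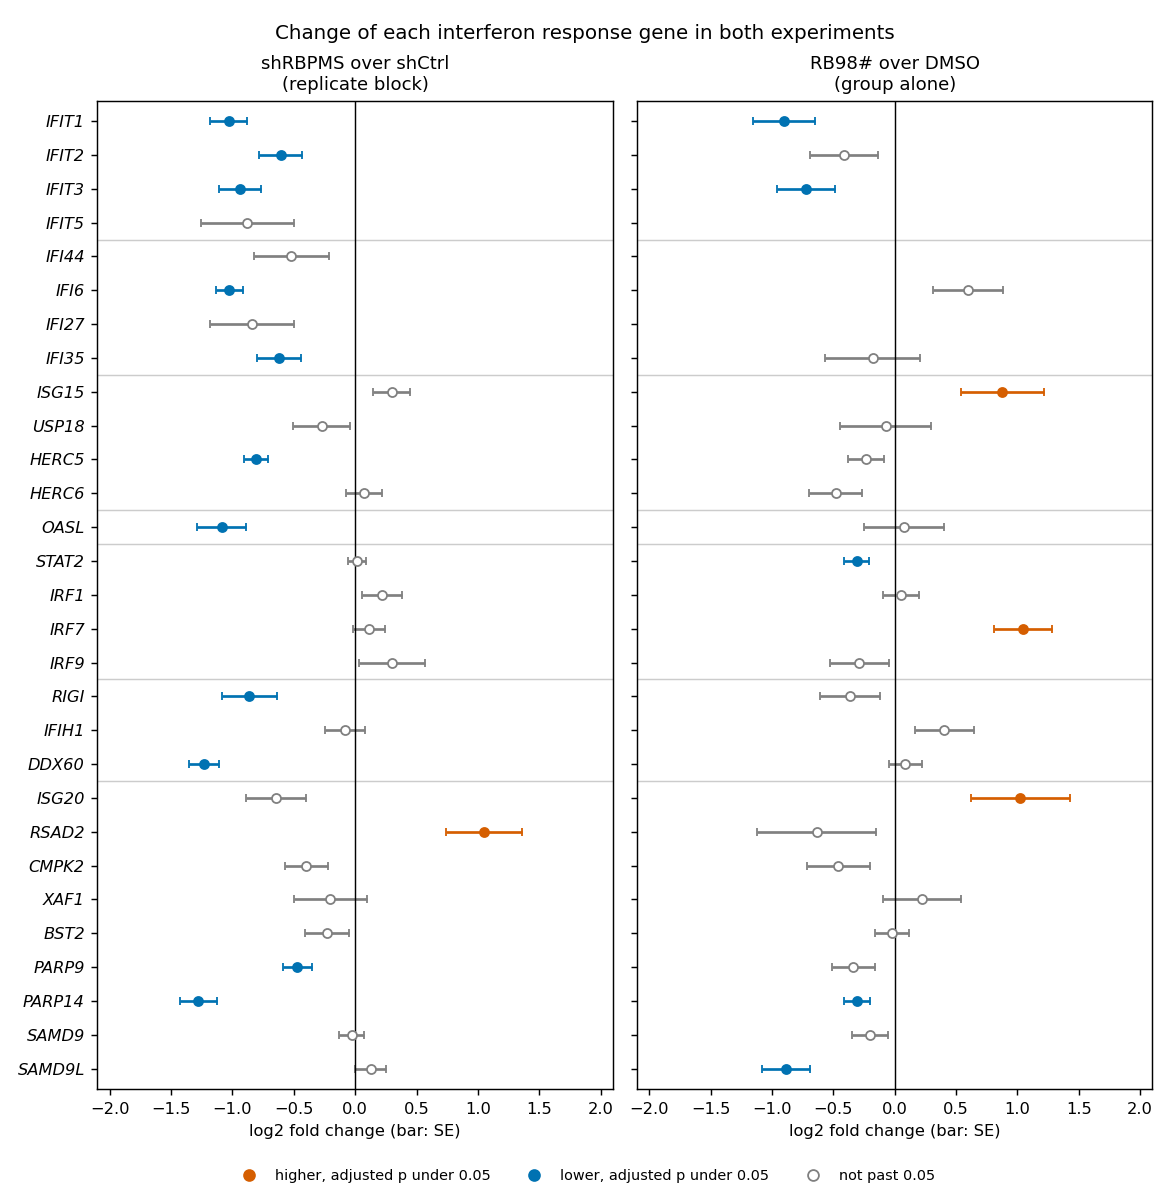
Log2 change of each gene after the knockdown (blocked fit) and with RB98# (fit without a block), with bars of 1 SE. The knockdown shows DDX60, PARP14, IFI6, OASL and IFIT1 below -1, whereas with RB98# DDX60 lies at 0.09, OASL at 0.08 and IFI6 at 0.60.

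Both treatments shared a direction for 15 of the 26 genes. Of these 12 were lower in both (46.2%, against 23.1% of 12115 genes tested in both), which are BST2, CMPK2, HERC5, IFI35, IFIT1, IFIT2, IFIT3, PARP14, PARP9, RIGI, SAMD9 and USP18, and IRF1, IRF7 and ISG15 were higher in both, though IRF1 turned to -0.048 with RB98# when scaled by library totals alone. DDX60, IFI6, IFIH1, ISG20, OASL and XAF1 were lower after the knockdown and higher with RB98#, and HERC6, IRF9, RSAD2, SAMD9L and STAT2 the reverse. These are signs of the log2 change, whether or not a gene passed its test. Most of the genes were lower in each experiment by itself (21 of 29 after the knockdown, 17 of 26 with RB98#). Many would therefore be lower in both without any gene-by-gene agreement of the treatments, and such agreement was not tested. Of all 12115 genes, 2801 were lower in both and 2896 higher in both. Another 3158 were lower after the knockdown and higher with RB98#, and 3260 the reverse.

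Neighbouring genes did not always share their change. The IFIT genes lie together on chromosome 10 (IFIT2, 89283694 to 89309276, IFIT3, 89327894 to 89340971, IFIT1, 89392546 to 89406486, and IFIT5, 89414586 to 89421001, all on the plus strand of GRCh38), and all were lower in shRBPMS. On chromosome 4, HERC6 (88378739 to 88443111) and HERC5 (88457117 to 88506163) lie on the same strand with blocked changes of 0.07 and -0.81. On chromosome 3, PARP9 (122527924 to 122564577, minus strand) and PARP14 (122680618 to 122730840, plus strand) both fell. On chromosome 7, SAMD9L (93130055 to 93148369) fell with RB98# while its neighbour SAMD9 (93099513 to 93118023) was not called. SAMD9 was also lower in each RB98# library than in either DMSO library (log2 change -0.20), and no test was made between these neighbours.

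Of the pathway around these genes, interferon genes themselves had no line in either table (0 of 10 ligands). Of 9 genes of the receptors and of JAK-STAT signalling, none passed in edgeR without the block after the knockdown (0 at an unadjusted p under 0.05), and with it, where 13.3% of all genes were higher and 14.8% lower, 2 rose, JAK2 (log2 change 0.39) and TYK2 (0.27), and 1 fell, the receptor chain IFNGR2 (-0.24). With RB98# 2 of 9 rose and none fell, and the 2 of 9 are near the 20.5% of all genes called higher. The receptor chain of type II interferon IFNGR1 was at 42.7 ± 3.10 CPM with RB98# and 20.8 ± 1.93 CPM with DMSO (n = 2 each, log2 change 1.04, adjusted p = 2.56e-08), and JAK1 had 0.23. Of 14 genes of nucleic acid sensing upstream of interferon, none passed without the block after the knockdown. At an unadjusted p under 0.05, 4 were higher and 2 lower, where 2733 of all 16215 genes were under it in either direction. With the block 4 rose and 3 fell (against 13.3% and 14.8% of all genes). Among them were UNC93B1, which carries endosomal Toll-like receptors (1.13), IFI16, a DNA sensor (-0.93), and DHX58, a relative of RIGI (-0.91). With RB98# 1 of the 14 rose (TRAF6, a signalling ligase, 0.87) and 5 fell (against 20.5% and 17.3% of all genes), among them the kinase IKBKE (-0.50) and the factor IRF5 (-0.38).

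Of 12 negative regulators, none passed without the block after the knockdown. At an unadjusted p under 0.05, 2 were higher and 1 lower, where 2733 of all 16215 genes were under it in either direction. With the block 2 rose and 3 fell (against 13.3% and 14.8% of all genes). Among them were the phosphatase PTPN6 (log2 change 1.03), the ubiquitin-editing enzyme TNFAIP3 (0.68) and the repressor IRF2 (-0.73). With RB98# 6 of 11 tested rose and 0 fell, against 20.5% and 17.3% of all genes. TNFAIP3 was at 24.0 ± 0.85 CPM with RB98# and 9.17 ± 1.52 CPM with DMSO (log2 change 1.40, adjusted p = 2.25e-08), the ubiquitin ligase RNF125 had 0.94 and SOCS3, an inhibitor of cytokine receptors, had 0.69. Of 36 further interferon-induced effectors, none passed without the block after the knockdown. At an unadjusted p under 0.05, 6 were higher and 6 lower, against the same 2733 of all 16215 genes. With the block 9 rose and 7 fell (against 13.3% and 14.8% of all genes). Among them were IFITM2, which blocks viral entry (1.04), UBE2L6, the conjugating enzyme for ISG15 (-0.98), and APOBEC3G, a cytidine deaminase (-0.88). With RB98# none of 34 rose and 6 fell, among them PARP12 (-0.47), TRIM14 (-0.38) and DTX3L (-0.37), the partner of PARP9, and the 6 of 34 are near the 17.3% of all genes called lower. The median log2 change of the 36 effectors after the knockdown was 0.05, against -0.49 for the 29 interferon response genes, both without the block. Both lists were chosen with earlier results of these data known, so this contrast is a description and not a test.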

How the data were processed

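RNA-seq counts of 10 libraries were analysed, 6 from the knockdown and 4 from the RB98# experiment. The 4 samples of RNA immunoprecipitation and m6A sequencing in the series were not analysed here. Per the file headers, the columns used hold raw counts per gene, deposited by the authors without normalisation. The tools listed in the submitters' processing notes, with no step for each, are featureCounts 2.0.1, HISAT2 2.2.1, DESeq2 1.32.0, MACS2 2.2.6, deepTools 3.5.1, fastp 0.22.0 and StringTie, and the builds hg38 and GRCh38. The log2 fold changes and adjusted p-values of the authors' own comparison were taken from the deposited tables and are named as such. Not used were 10 other columns per library, adjusted or per length. The knockdown table held 16405 genes, and that of RB98# held 12325 after 112 repeated lines with the same counts were dropped.

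Genes were tested with edgeR 4.0.16 (quasi-likelihood F test, two-sided) in R 4.3.3 on counts with TMM factors, after filterByExpr (minimum count 10, minimum total 15), with group alone as the design and Benjamini-Hochberg adjustment over all genes tested, at 0.05. The standard error is the log2 fold change over the square root of F. Levels are CPM scaled by TMM, given as mean ± SD, and per kilobase of merged GENCODE exons on GRCh38. The scripts were tested on simulated data. Alternatives were other size factors, no filter, DESeq2 1.42.0, limma-voom (limma 3.58.1), a replicate block, the label sets, and leaving out each library.

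Same-numbered knockdown libraries deviated together from their group means (correlation 0.811, 0.693 and 0.713 over 13512 genes), so the numbers were taken as pairs. Replicate 2 against 3 gave 0.684 and 0.693, so the shared deviation follows the label set rather than the number within set 2.

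The 37 genes, the pathway and marker lists and the tests were chosen with earlier results of these data known. Values per library are given for genes that passed in a fit with or without block, with RB98# or in the difference, and for the transcription factors and ISG15. Of each pathway list, at most 3 genes past 0.05 per experiment are named, those with the largest change. Intervals and standard errors cover the spread between libraries, and the depth of 13.85 to 34.38 M counts (1 M is 1e6) leaves genes under 1 CPM on few counts.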

Additional observations from a re-analysis of the deposited data

Results flagged for a closer look

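DDX60 was flagged because its change differed between the experiments by a test of the difference itself. It was at 15 ± 1.27 CPM with RB98# and 14.2 ± 0.43 CPM with DMSO (n = 2 each), and at 6.33 ± 0.63 CPM in shRBPMS and 14.9 ± 0.59 CPM in shCtrl (n = 3 each). The log2 change with RB98# minus that after the knockdown was 1.30 (SE 0.20, edgeR quasi-likelihood adjusted p = 0.00975 over 12126 genes), and 1.30 with the replicate block (SE 0.19, adjusted p = 0.000964). Each shRBPMS library was lower than each shCtrl library, while the RB98# and DMSO libraries overlap. The experiments differ in virus, selection, solvent and library depth, and their part in the difference was not tested.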

How the results depend on the processing

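Of 538 values for single genes, 431 stayed on the same side of 0.05 in the same direction, 44 lost their call (35 of them with 1 library left out), 53 gained one (49 of them with the replicate block or label set) and 10 changed sign, none of them called in either fit. With 1 library left out, the knockdown log2 change ran from -0.19 to 0.30 for IRF7, from -0.15 to 0.66 for ISG15 and from -0.093 to 0.12 for STAT2. It was below 0 without shCtrl replicate 1 for each of the 3, without shRBPMS replicate 2 for IRF7 and ISG15, and without shRBPMS replicate 3 for STAT2. STAT2 was also at -0.012 when set 2 was summed to 1 library per group and the fit held a term for the set. With RB98# IRF1 was at -0.048 by library totals only and ran from -0.035 (without DMSO replicate 2) to 0.14 with 1 library left out, and the difference of effects for ISG15 ran from -0.082 (without RB98# replicate 2) to 1.06. The cause was not tested. In the knockdown, 320 genes and 3 interferon response genes were called by edgeR. The replicate block gave 4549 and 12, a covariate for the label set 5810 and 11, label set 2 alone 6830 and 13, and replicates 2 and 3 summed with the label set 2681 and 8, while DESeq2 called 1338 genes. With the covariate, 37.9% of the interferon response genes were called, near the 35.8% of all genes. In label set 2 alone the shares were 46.4% (of 28 genes) and 42.2%, also near each other. Counting lower calls alone, the shares were 37.9% against 18.4% and 42.9% against 21.7%. With 1 library left out the counts were 0 to 322 genes and 0 to 3 interferon response genes. Where edgeR called 0 genes, without shCtrl replicate 3 or shRBPMS replicate 2 or 3, 2010, 1866 and 2002 had an unadjusted p under 0.05. With RB98#, DESeq2 called 3 interferon response genes against 8, and library totals alone moved their median to -0.32. With 1 library left out the counts were 2731 to 5028 genes and 3 to 6 interferon response genes, with a median of -0.24 to -0.16. The RB98# numbers do not pair the libraries (correlation -0.052), and the replicate block there called 7, ISG20 being lost (adjusted p = 0.0542). The difference of effects called 988 genes and 1 interferon response gene, 4497 and 8 with the replicate block, 5439 and 8 with the covariate for the label set, and 92 to 1541 and 0 to 2 with 1 library left out. The 8 are 30.8% of the genes tested, against 37.1% of all genes with the block and 44.9% with the covariate. Genes at few counts, such as RSAD2 and ISG20, are limited by depth.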

Other observations

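Several interferon response genes differed between the label sets as much as or more than between the treatments. ISG15 had 1.88 CPM in shRBPMS replicate 1 and 7.06 and 6.22 CPM in shRBPMS replicates 2 and 3, and 1.34 CPM in shCtrl replicate 1 and 5.70 and 5.48 CPM in shCtrl replicates 2 and 3. BST2 had 9.46 CPM against 16.1 and 16.1 CPM in shRBPMS, and 7.09 CPM against 21.7 and 23.2 CPM in shCtrl, in the same order of replicates. SAMD9 ran the other way, with 23.1 CPM against 11.4 and 10.7 CPM in shRBPMS and 21.9 CPM against 11 and 12.4 CPM in shCtrl. The log2 ratio of set 1 over set 2 within shCtrl, with 0.5 CPM added, was -1.73 for ISG15, -1.59 for BST2, -1.12 for IFI6 and 0.88 for SAMD9. For RIGI it was 0.75, smaller in size than its knockdown change (-0.91 without the block). These genes were chosen after their values were seen, and what the sets stand for was not tested.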
